A study of Homo sapiens with 32 samples.

Results

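MYCN and 7 transcription factors of the adrenergic neuroblastoma cell state (PHOX2A, HAND2, GATA2, GATA3, ISL1, TBX2 and SOX11) were followed by RNA-Seq in SK-N-BE(2) cells treated with cannabidiol (CBD). The 8 genes were taken by symbol from a table of 22610 gene entries, and all 8 were found and passed the filter on low expression (a mean of at least 1 FPKM, which 12621 entries passed). FPKM is the number of sequenced fragments scaled to the exonic length of a gene and to the mapped reads of its sample. The SK-N-BE(2) line was derived from a human neuroblastoma and carries amplified MYCN, and all results concern this 1 line. CBD cultures received 20 μM CBD in ethanol and vehicle cultures received 0.1% ethanol alone, for 3, 6, 12 or 24 h. Each of the 8 groups held 4 replicates (32 samples in all). The sources used here do not say whether the replicates came from separate platings, so p-values measure the spread between these samples.

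Neuroblastoma arises from sympathoadrenal cells of the neural crest. In its adrenergic state a small set of transcription factors occupy each other's enhancers and hold the sympathetic noradrenergic program in place, whereas a mesenchymal state is marked by another set that includes PRRX1 and SNAI2. MYCN is a basic helix-loop-helix leucine zipper factor that pairs with MAX on E-box DNA (CANNTG, with CACGTG preferred) and drives growth and ribosome biogenesis. PHOX2A and ISL1 are homeodomain factors of autonomic neurons, HAND2 is a basic helix-loop-helix factor, and GATA2 and GATA3 are zinc finger factors that bind GATA sites such as AGATAA. TBX2 is a T-box factor and SOX11 is an SRY-related factor of developing neurons.

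On GRCh37 (the hg19 build, with GENCODE release 44 annotation) MYCN lies at chr2:16080672-16087129 on the plus strand and SOX11 at chr2:5832516-5841517 on the plus strand. PHOX2A lies at chr11:71950121-71956708 (minus), HAND2 at chr4:174446120-174451380 (minus) and GATA2 at chr3:128198270-128212044 (minus). GATA3 lies at chr10:8087341-8117161 (plus), ISL1 at chr5:50679282-50690564 (plus) and TBX2 at chr17:59477204-59486827 (plus). The values below are gene-level FPKM over the exons of each gene.

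RefSeq promoter windows on GRCh38.p14 were matched for 6 of the 8 genes (all but TBX2 and SOX11). The 250 bases upstream of the start site are printed 5′ to 3′ on the strand of the gene for the riser MYCN, for ISL1 and GATA2, which were both lower at 24 h, and for HAND2, which was called in no comparison of CBD with vehicle. Capitals mark 3 motifs, searched on either strand. The E-box was searched as CANNTG. Of the GATA sites of the zinc finger factors only AGATAA was searched, and other forms are not marked. The homeodomain core was searched as TAATTA. The windows are chr2:15940300-15940549 (plus) for MYCN, chr5:51383198-51383447 (plus) for ISL1, chr3:128493202-128493451 (minus) for GATA2 and chr4:173530230-173530479 (minus) for HAND2.
MYCN: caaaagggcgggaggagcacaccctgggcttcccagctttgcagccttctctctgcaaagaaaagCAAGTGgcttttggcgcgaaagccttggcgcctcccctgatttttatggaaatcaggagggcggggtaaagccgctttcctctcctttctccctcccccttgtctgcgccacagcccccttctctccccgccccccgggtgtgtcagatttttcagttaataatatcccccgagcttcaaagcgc
ISL1: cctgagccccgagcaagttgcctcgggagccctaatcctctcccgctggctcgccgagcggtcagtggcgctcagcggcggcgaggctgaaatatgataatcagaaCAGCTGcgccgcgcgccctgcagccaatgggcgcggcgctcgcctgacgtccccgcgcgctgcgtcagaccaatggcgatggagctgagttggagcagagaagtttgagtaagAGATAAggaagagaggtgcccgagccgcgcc
GATA2: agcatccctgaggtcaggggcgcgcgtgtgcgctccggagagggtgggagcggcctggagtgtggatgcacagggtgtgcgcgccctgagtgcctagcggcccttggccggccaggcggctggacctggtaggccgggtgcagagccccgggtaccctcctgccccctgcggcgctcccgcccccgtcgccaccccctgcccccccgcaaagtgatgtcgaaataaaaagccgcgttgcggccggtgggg
HAND2: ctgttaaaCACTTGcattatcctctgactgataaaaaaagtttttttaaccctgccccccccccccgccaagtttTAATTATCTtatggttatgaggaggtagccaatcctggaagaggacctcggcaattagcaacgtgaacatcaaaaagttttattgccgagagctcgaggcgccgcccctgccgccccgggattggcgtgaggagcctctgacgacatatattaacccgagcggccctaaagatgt

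MYCN and ISL1 each hold 1 CANNTG, at positions -185 and -144 from the start site, and ISL1 also holds AGATAA at -31. HAND2 holds CANNTG at -242 and an overlapping TAATTA and AGATAA (on the other strand) at -175 and -172. GATA2, GATA3 and PHOX2A hold none of these letters in the window, and CACGTG, which is itself a CANNTG, occurs in none of the 6. Among 35116 RefSeq promoter windows of this length, 61.8% hold CANNTG, 6.34% CACGTG, 9.17% AGATAA and 4.35% TAATTA. A match is a run of letters and was not tested for binding.

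FPKM keeps no read depth, so no counting interval can be given. Relative depth, estimated from the lowest nonzero values of rarely detected genes, lay between 0.784 and 1.208 times the typical sample. Its median was lower in CBD than in vehicle samples at each time, from 0.919 against 1.048 at 3 h to 1.00 against 1.019 at 24 h.

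MYCN was the most abundant of the 8 genes by far. Its mean over all 32 samples was 1762 FPKM, which ranked 36th of the 22610 entries. HAND2 followed at 497.7 FPKM and PHOX2A at 404.1 FPKM, then GATA3 at 123.4, ISL1 at 70.11, GATA2 at 59.5, SOX11 at 36.92 and TBX2 at 13.64 FPKM. This order of mean FPKM was the same in all 8 groups. Neighbours in the order did not overlap in any group except ISL1 and GATA2 in CBD at 3 h, whose samples ran from 67.4 to 73.2 and from 64.4 to 73.2 FPKM. Across all samples HAND2 was the steadiest gene, with a highest value 1.159 times its lowest, and MYCN the most variable at 1.726 times.

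**Figure D1:**
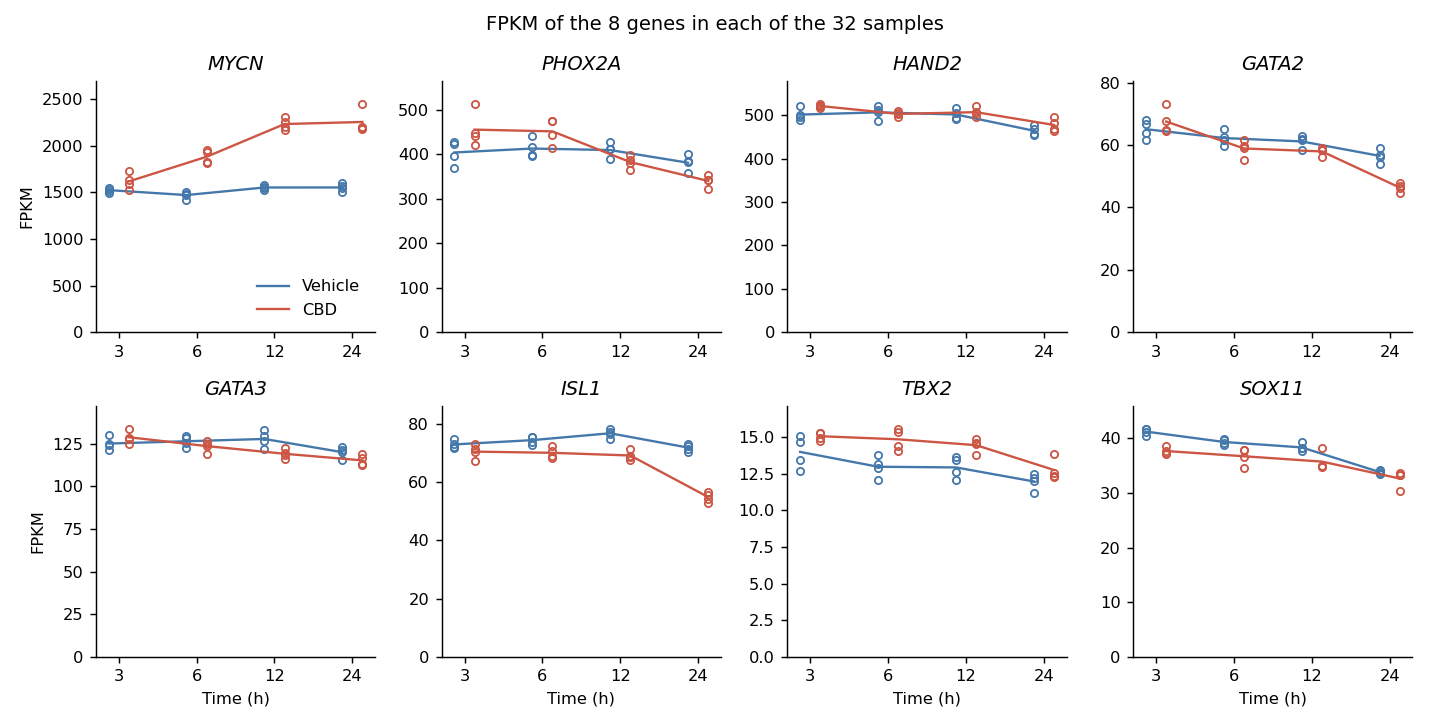
FPKM (y axis, from 0) against time in h (x axis, equally spaced) for each of the 8 genes, with vehicle in blue and CBD in red. Open circles are single samples (4 per group) and lines join group means. CBD samples of MYCN lie above all vehicle samples from 6 h on, and those of ISL1 and GATA2 lie below them at 24 h.

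MYCN mRNA rose in CBD-treated cells from 6 h on. At 3 h the CBD samples read 1729, 1632, 1591 and 1523 FPKM and the vehicle samples 1539, 1547, 1519 and 1497 FPKM. The groups overlapped at that time, and the log2 fold change of 0.08 ± 0.04 (SE) did not pass the threshold (limma adjusted p = 0.153). At 6 h the CBD samples read 1960, 1814, 1930 and 1832 FPKM against 1487, 1504, 1421 and 1477 FPKM in vehicle. From this time on every CBD sample was above every vehicle sample, and the log2 fold change at 6 h was 0.36 ± 0.04 (SE; limma adjusted p = 3.86e-08).

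By 12 h CBD samples held 2307, 2253, 2205 and 2174 FPKM of MYCN and vehicle samples 1584, 1543, 1560 and 1527 FPKM, a log2 fold change of 0.52 ± 0.04 (limma adjusted p = 9.89e-12). At 24 h the CBD samples read 2208, 2452, 2187 and 2182 FPKM and the vehicle samples 1502, 1572, 1544 and 1597 FPKM. The group means were 2257 ± 130.1 and 1554 ± 40.7 FPKM (SD, n = 4 each), and the log2 fold change was 0.54 ± 0.04 (SE), or 1.451-fold (limma adjusted p = 1.82e-12). The 24 h effect was thus close to that at 12 h, while vehicle samples at 24 and 3 h differed by a log2 value of 0.03 (95% interval -0.05 to 0.10). Quantile normalization, which pulls the most abundant genes of all samples to common values, gave a log2 fold change of 0.36 for MYCN at 24 h (limma adjusted p = 2.91e-06).

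ISL1, a LIM homeodomain factor of sympathetic neurons, was first called lower in CBD at 12 h, whereas MYCN was first called higher at 6 h. The order of their onset was not tested. The 3 h samples overlapped, at 67.4 to 73.2 FPKM in CBD and 71.9 to 74.9 FPKM in vehicle. At 6 h the CBD samples read 69.0, 70.8, 68.3 and 72.3 FPKM and the vehicle samples 75.6, 72.9, 75.7 and 73.7 FPKM. These groups did not overlap, but the log2 fold change of -0.09 ± 0.02 missed the threshold (limma adjusted p = 0.0138), which it passed without CBD 6 h replicate 4 and with quantile normalization. At 12 h ISL1 was lower in CBD, with a log2 fold change of -0.15 ± 0.02 (limma adjusted p = 3.38e-05), with 67.5 to 71.4 FPKM against 75.0 to 78.5 FPKM. Its group means at 3 and 12 h were 70.5 and 69.2 FPKM in CBD and 73.0 and 76.8 FPKM in vehicle.

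At 24 h ISL1 read 53.0, 56.7, 55.5 and 54.4 FPKM in CBD and 73.2, 72.4, 70.5 and 71.5 FPKM in vehicle. Every CBD sample was thus far below every vehicle sample. The means were 54.9 ± 1.60 and 71.9 ± 1.17 FPKM (SD, n = 4 each), a log2 fold change of -0.38 ± 0.02 (SE; 0.767-fold; limma adjusted p = 7.96e-13).

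GATA2 separated the treatments at 24 h only, among the 4 times tested. It read 46.9, 44.6, 47.7 and 46.2 FPKM in CBD and 56.3, 59.1, 56.9 and 53.9 FPKM in vehicle at that time. The means of 46.4 ± 1.34 and 56.6 ± 2.11 FPKM (SD, n = 4 each) gave a log2 fold change of -0.28 ± 0.04 (SE; 0.823-fold; limma adjusted p = 1.42e-06). At 3, 6 and 12 h the groups overlapped and log2 fold changes were 0.05, -0.08 and -0.08, none past the threshold.

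GATA3, the second GATA factor of the set, had a smaller change and at 12 h only. The log2 fold change was -0.10 ± 0.03 at 12 h (limma adjusted p = 0.00876), with 116 to 122 FPKM in CBD against 122 to 133 FPKM in vehicle, so that the groups overlapped slightly. The call was lost on leaving out any of CBD 12 h replicates 1, 2 and 3 or vehicle 12 h replicates 1, 2 and 3 (limma adjusted p up to 0.048). It was also lost under 4 of 11 alternative settings, which were no filter, median-ratio scaling, relative depth as a term and only the compared groups in the fit (limma adjusted p from 0.0124 to 0.0429). At 24 h the values were 112 to 119 FPKM in CBD and 116 to 123 FPKM in vehicle, a log2 fold change of -0.06 (limma adjusted p = 0.0882).

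PHOX2A, a homeodomain activator of noradrenergic genes such as DBH, passed the threshold at no single time. Its log2 fold changes at 3, 6, 12 and 24 h were 0.17, 0.13, -0.10 and -0.16, with limma adjusted p of 0.0596, 0.109, 0.192 and 0.0154. At 24 h the CBD samples read 353, 341, 343 and 322 FPKM and the vehicle samples 382, 399, 384 and 357 FPKM. All 4 CBD samples were below all 4 vehicle samples at that time, and the call passed without vehicle 24 h replicate 4 (limma adjusted p = 0.00812). The sign of the difference thus went from higher in CBD to lower in CBD over the series.

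HAND2, which marks sympathetic precursors, held between 464 and 521 FPKM in the group means of both treatments. Its log2 fold changes were 0.06, -0.01, 0.02 and 0.04 at 3, 6, 12 and 24 h, and none passed. The 95% interval at 24 h ran from -0.01 to 0.09 on the log2 scale.

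TBX2, the least abundant of the set, was higher in CBD at 6 h. It read 14.0, 15.4, 15.6 and 14.4 FPKM in CBD against 13.2, 13.8, 12.9 and 12.1 FPKM in vehicle, without overlap. The log2 fold change was 0.18 ± 0.05 (SE; limma adjusted p = 0.00925). This call was lost on leaving out CBD 6 h replicate 2 or 3 or vehicle 6 h replicate 1, 3 or 4 (limma adjusted p up to 0.0487). It was also lost under 3 of 11 alternative settings, which were no filter, relative depth as a term and only the compared groups in the fit (limma adjusted p from 0.0158 to 0.0457). At 12 h the groups again did not overlap, with a log2 fold change of 0.15 (limma adjusted p = 0.0198), and at 3 and 24 h it was 0.10 and 0.08.

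SOX11 was lower in CBD at each time by a small margin that never passed the threshold. At 3 h it read 37.2, 37.2, 37.7 and 38.5 FPKM in CBD and 41.6, 41.1, 40.3 and 41.8 FPKM in vehicle, with no overlap. The log2 fold change of -0.13 ± 0.03 lay at the edge of the threshold (limma adjusted p = 0.0101) and passed under 5 of 11 alternative settings. It was -0.10 at 6 h, -0.10 at 12 h and -0.05 at 24 h (limma adjusted p = 0.0227, 0.0128 and 0.154). Without CBD 12 h replicate 4, which stood above its group, the 12 h difference passed (limma adjusted p = 0.000848).

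**Figure D2:**
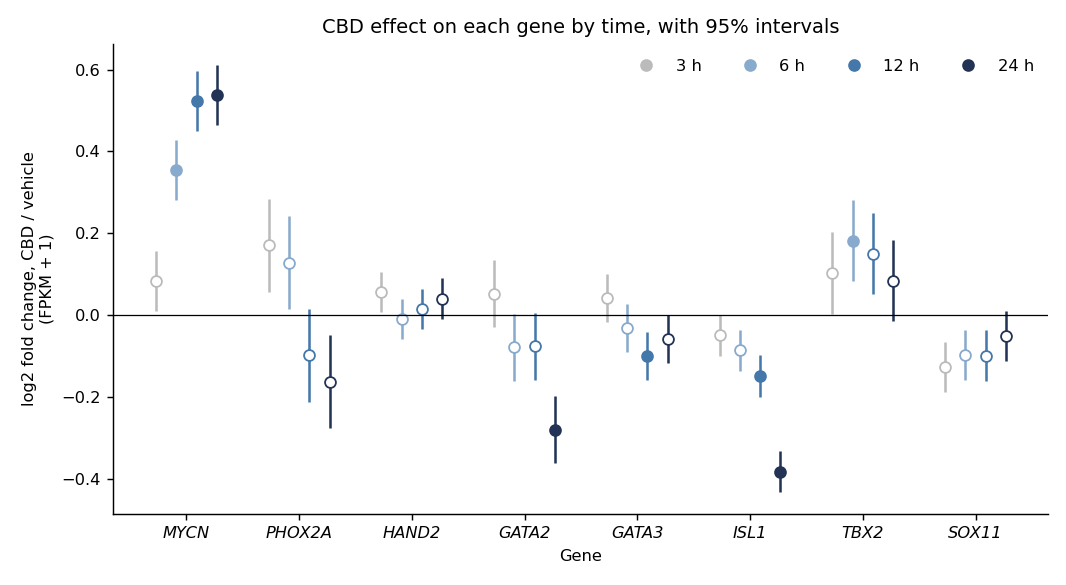
log2 fold change of CBD over vehicle on log2(FPKM + 1) (y axis) for each gene (x axis) at 3, 6, 12 and 24 h, from light to dark. Circles are limma estimates, filled where the adjusted p was under 0.01, and bars are 95% intervals. MYCN climbs to 0.54 while ISL1 and GATA2 drop to -0.38 and -0.28 at 24 h.

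Counted together, none of the 8 genes passed the limma threshold (adjusted p under 0.01) at 3 h, where 2.46% of all tested genes passed. At an unadjusted p under 0.05 there were 5 of 8, against 23.1% of all tested genes. At 6 h 2 of 8 passed, both higher in CBD, where 10.2% of all tested genes passed and 4.07% were higher. At 12 h 3 of 8 passed against 20.1% of all tested genes, with MYCN higher (8.85% of all genes) and GATA3 and ISL1 lower (11.2%). At 24 h 3 of 8 passed against 42.1%, with MYCN higher (20.8%) and GATA2 and ISL1 lower (21.3%). The share of the 8 genes called at 24 h was therefore no larger than that of all genes.

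Single-gene exact permutation tests of 4 against 4 samples (two-sided) cannot go below p = 0.0286. That smallest value was reached by each gene whose groups did not overlap. These were SOX11 at 3 h (9.88% of all tested genes did not overlap at that time), and MYCN, ISL1, TBX2 and SOX11 at 6 h (19.6%). At 12 h they were MYCN, ISL1 and TBX2 (30.3%), and at 24 h MYCN, PHOX2A, GATA2 and ISL1 (51%).

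Size set MYCN and ISL1 apart more than the call did. The median absolute log2 fold change of all genes called at 24 h was 0.21, against 0.54 for MYCN, 0.38 for ISL1 and 0.28 for GATA2. By absolute log2 fold change at 24 h, MYCN ranked 542nd, ISL1 997th and GATA2 1810th of 12621. The log2(FPKM + 1) scale understates changes of low genes, so both the median and the ranks favour abundant genes such as MYCN.

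Tested over the 4 times at once with the limma F-test, 7 of the 8 genes differed between CBD and vehicle, against 47.2% of all tested genes. HAND2 was the exception (adjusted p = 0.137). GATA3 passed narrowly (adjusted p = 0.00895) and lost the call under 3 of 10 alternative settings (adjusted p up to 0.026) and on leaving out any of 23 of the 32 samples (up to 0.0256). TBX2 lost its call with relative depth as a term (adjusted p = 0.0155) and PHOX2A under quantile normalization (adjusted p = 0.0376).

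The CBD effect itself changed between 3 and 24 h for 4 of the 8 genes, where 27.2% of all tested genes passed. For MYCN the log2 fold change grew by 0.45 ± 0.05 (SE; limma adjusted p = 7.99e-08), a direction shared by 12.9% of all tested genes. For PHOX2A, GATA2 and ISL1 it fell by nearly the same amount, -0.33 ± 0.08, -0.33 ± 0.06 and -0.33 ± 0.03 (limma adjusted p = 0.00136, 3.58e-05 and 2.3e-08), as 14.3% of all genes did. PHOX2A lost this call under quantile normalization (limma adjusted p = 0.0249).

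Over the same interval 4 of the 8 genes fell in vehicle cells alone, where 57.8% of all tested genes passed and 31.1% were lower at 24 h. The log2 values were -0.28 for SOX11, -0.21 for TBX2, -0.20 for GATA2 and -0.11 for HAND2. In CBD-treated cells all 8 passed, against 67.8% of all tested genes, and these 2 time comparisons use the same samples as the comparisons above. MYCN was higher at 24 than at 3 h in CBD (0.48, with 32.1% of all genes higher) and the other 7 were lower (35.7% of all genes), with log2 values from -0.53 for GATA2 and -0.42 for PHOX2A to -0.13 for HAND2. Under quantile normalization GATA3 and SOX11 lost the CBD call (limma adjusted p = 0.406 and 0.0113).

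Most of the other transcription factors of the adrenergic state were lower in CBD at 24 h. Below, a value given after a gene with its SE is its log2 fold change of CBD over vehicle. In a list of 18, all above the filter, the numbers lower at 3, 6, 12 and 24 h were 5, 8, 11 and 13, where the shares of all tested genes were 1.28%, 6.13%, 11.2% and 21.3%. In the other direction 1 was higher at 12 h and 2 at 24 h (8.85% and 20.8% of all tested genes). The median log2 fold change of the list at 24 h was -0.25, against 0.00 over all tested genes, and the list was not tested as a set. Of the 13 calls only SIX3 was lost under any alternative setting. LMO3, a LIM-only cofactor, had the largest fall at 24 h (-0.72 ± 0.03, limma adjusted p = 1.43e-15), then INSM2 (-0.61 ± 0.05) and MEIS2, a TALE homeodomain factor (-0.57 ± 0.02).

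The Kruppel-like factor KLF7 (0.22 ± 0.02) and the TALE homeodomain factor PBX3 (0.12 ± 0.02) were higher.

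**Figure D3:**
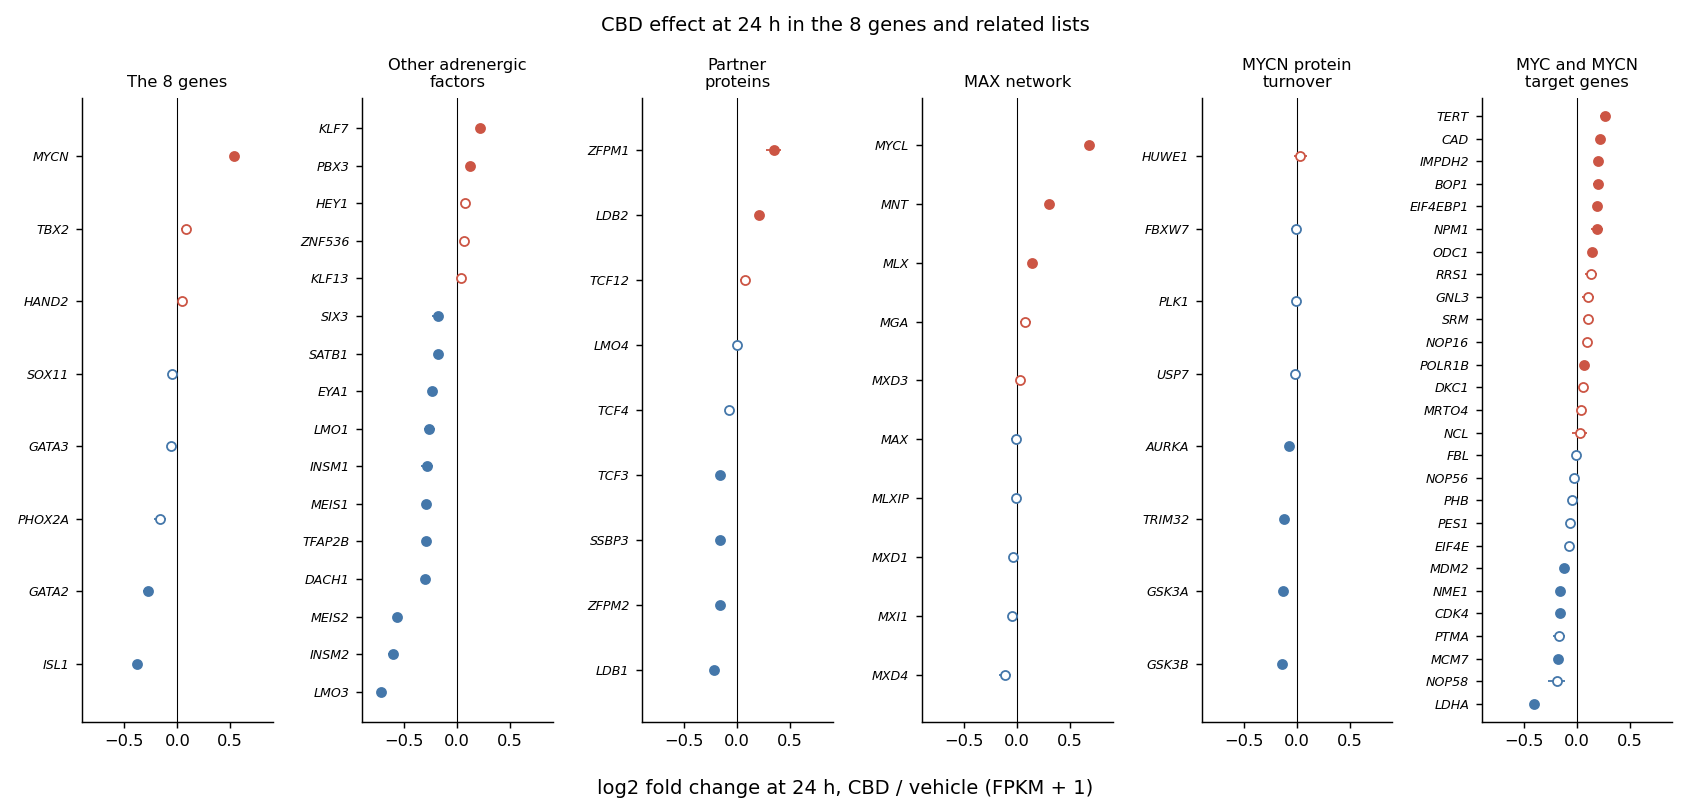
log2 fold change of CBD over vehicle at 24 h (x axis, FPKM + 1 scale) for the 8 genes and genes of 5 related lists, 1 gene per line. Circles are limma estimates with SE bars, red above and blue below 0, filled where the adjusted p was under 0.01. Of the 16 other adrenergic factors drawn 11 are filled blue, and in the MAX network MYCL stands highest at 0.68.

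Among 9 proteins that pair with the adrenergic factors (E proteins, LIM-domain binders and GATA cofactors), 2 were higher and 4 lower at 24 h, where 20.8% of all tested genes were higher and 21.3% lower. Of these calls that of TCF3 (lower) was lost without vehicle 24 h replicate 2 (limma adjusted p = 0.0134). ZFPM1, the GATA cofactor FOG1, was higher by 0.34 ± 0.07 and LDB2 by 0.20 ± 0.03. LDB1, the adaptor of LIM factors such as ISL1, was lower at -0.22 ± 0.03 (limma adjusted p = 3.01e-06).

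In the MAX network, the set of factors that pair with MAX or its relative MLX, 10 of 12 genes passed the filter and 3 were higher at 24 h with none lower, against 20.8% and 21.3% of all tested genes. MYCL, a paralog of MYCN, read 7.58, 7.84, 7.65 and 7.54 FPKM in CBD and 4.30, 4.31, 4.43 and 4.62 FPKM in vehicle at 24 h, with no overlap. Its log2 fold change was 0.68 ± 0.03 (limma adjusted p = 5.42e-15). MNT, a MAX-binding repressor, was higher by 0.30 ± 0.04 and MLX by 0.14 ± 0.03. MAX itself, at a mean of 27.79 FPKM, had a log2 fold change of -0.01. MYC was near 0, with a mean of 0.016 FPKM, and was listed above 0 in 29 of 32 samples.

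**Figure D4:**
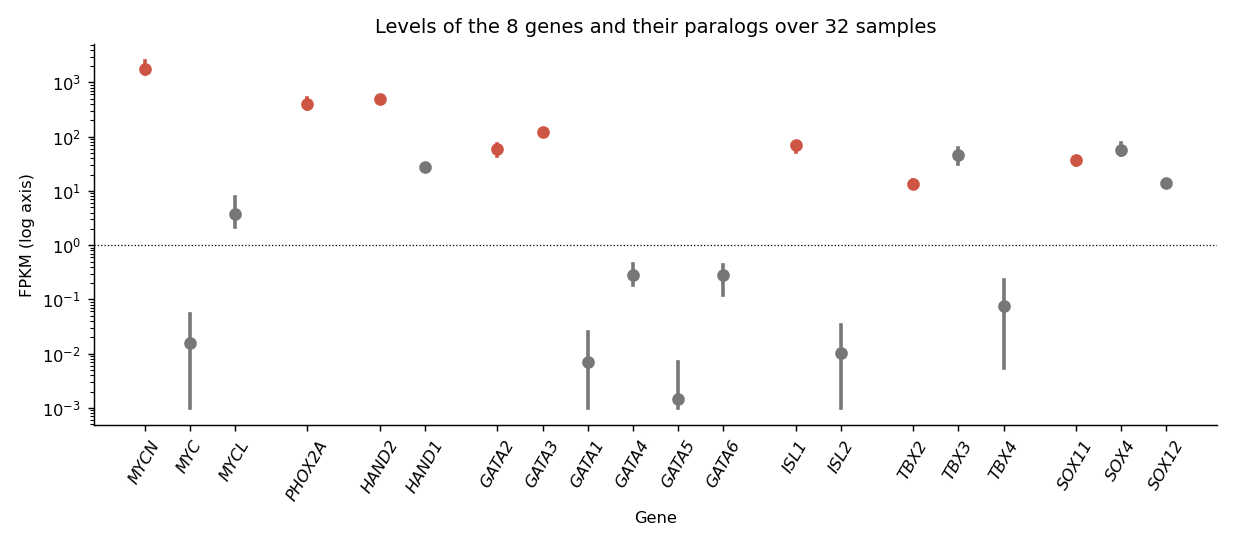
FPKM on a log axis for the 8 genes (red) and measured paralogs of them (grey), grouped by family along the x axis. Points are means over 32 samples and bars run from the lowest to the highest sample, with values of 0 drawn at the foot of the scale, and the dotted line marks the filter at 1 FPKM. MYCN at 1762 FPKM stands far above MYCL and MYC, whereas TBX3 and SOX4 stand above TBX2 and SOX11.

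Within families, HAND2 stood above HAND1 (27.88 FPKM). ISL2 and the other GATA genes measured were under 1 FPKM, while TBX3 (46.18 FPKM) and SOX4 (56.45 FPKM) were above TBX2 and SOX11. Of 6 paralogs tested, MYCL was higher at 24 h and 2 were lower, SOX4 among them (20.8% and 21.3% of all tested genes). SOX4 was lower in CBD than in vehicle at every time, with -0.46 ± 0.02 at 24 h (limma adjusted p = 3.6e-15), where SOX11 had -0.05. From 3 to 24 h SOX4 rose in both treatments, by a log2 value of 0.48 in vehicle and 0.16 in CBD. The value for TBX3 was 0.01.

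Of 9 genes that act on the stability of MYCN protein, 5 were lower at 24 h and none higher, against 21.3% and 20.8% of all tested genes. GSK3B, a kinase that marks MYCN for degradation, was lower at -0.14 ± 0.03 (limma adjusted p = 4.8e-05), and of the 5 calls it alone held under every alternative setting. At 6 and 12 h GSK3B was not called. The 2 of the 9 lower at those times (6.13% and 11.2% of all tested genes) were AURKA (-0.22 and -0.22) and PLK1 (-0.23 and -0.17). Which way each gene of the list acts on MYCN was not weighed. FBXW7, the ubiquitin ligase adaptor, had a log2 fold change of -0.01. RNA says nothing of the level of MYCN protein, which was not analysed here.

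Of 27 known MYC and MYCN target genes above the filter, 8 were higher and 5 lower in CBD at 24 h, against 20.8% and 21.3% of all tested genes. The calls of NPM1 and POLR1B (higher) and CDK4 (lower) were lost under some alternative. Their median log2 fold change was 0.03 against 0.00 over all tested genes. LDHA, lactate dehydrogenase A, was lower at -0.41 ± 0.03 (limma adjusted p = 1.33e-12). TERT, the telomerase subunit, was higher by 0.27 ± 0.05 and CAD, an enzyme of pyrimidine synthesis, by 0.22 ± 0.03 (limma adjusted p = 4.68e-05 and 7.4e-06). ODC1, the first enzyme of polyamine synthesis, was higher by 0.14 ± 0.02. At 6 h 1 of the 27 was higher (EIF4EBP1, 0.20) and none lower. The shares of all tested genes at that time were 4.07% and 6.13%. The EIF4EBP1 call at 6 h was lost with only the compared groups in the fit (limma adjusted p = 0.0108).

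The FPKM listed for MYCNOS, at the MYCN locus, were also higher in CBD. MYCNOS is an antisense gene whose span overlaps that of MYCN by 1700 bases, with 98 exonic bases in common. These are 3.6% of the exonic bases of MYCN and 1.9% of those of MYCNOS. At 6 h it read 95.01, 93.1, 97.0 and 92.7 FPKM in CBD and 79.6, 77.7, 76.1 and 73.9 FPKM in vehicle. At 24 h the values were 88.2, 94.7, 92.6 and 88.6 FPKM in CBD and 72.4, 74.2, 69.3 and 69.6 FPKM in vehicle, and the groups overlapped at none of the 4 times.

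For MYCNOS the log2 fold changes at 3, 6, 12 and 24 h were 0.14, 0.29, 0.31 and 0.35 (limma adjusted p = 0.00954, 3.58e-07, 5.55e-08 and 2.48e-09). The 3 h call was lost under 6 of 11 alternative settings (limma adjusted p up to 0.193). It was also lost without CBD 3 h replicate 1, 2, 3 or 4 or vehicle 3 h replicate 3 or 4 (limma adjusted p up to 0.0536). The study's methods describe the run as first stranded, but whether the counting used strand is not given in the sources used here. Without strand, reads in the shared stretch of MYCN and MYCNOS could not be told apart. MYCN had a mean of 1762 FPKM over all samples and MYCNOS 83.1 FPKM. How much of the MYCNOS values, and of their difference between treatments, could come from MYCN reads was not tested. Further along chromosome 2, NBAS was higher by 0.24 ± 0.02 at 24 h (limma adjusted p = 2.83e-09) and DDX1, which is often co-amplified with MYCN, had a log2 fold change of -0.09 (limma adjusted p = 0.0694).

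Antisense genes of the other factors showed no common pattern. TBX2-AS1 read 12.9, 10.1, 12.6 and 12.2 FPKM in CBD and 8.13, 8.73, 7.76 and 7.52 FPKM in vehicle at 24 h, which gave a log2 difference of 0.52 ± 0.07 (limma adjusted p = 1.4e-06), where TBX2 had 0.08. HAND2-AS1, which shares 24.1% of the exonic bases of HAND2, gave 0.05 at that time. GATA2-AS1, at a mean of 3.236 FPKM, was lower at 6 h (-0.31), with -0.06 and -0.05 at 12 and 24 h. Its 6 h call was lost with only the compared groups in the fit (limma adjusted p = 0.0127). GATA3-AS1 was called at no time in CBD against vehicle.

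Markers were read for the adrenergic identity of the cells and for other cell types. All 8 adrenergic cell markers were above the filter, and their summed level at 24 h was 1973 to 2084 FPKM in CBD and 2469 to 2558 FPKM in vehicle. Most of the sum was STMN2 and CHGA (means of 1097 and 506.3 FPKM over all samples), so it does not describe each marker. The ranges of the sum overlapped at 3 h and did not at 6 h (1985 to 2165 against 2184 to 2246 FPKM) or 12 h (2061 to 2184 against 2325 to 2404 FPKM). At 24 h 6 of the 8 were lower and 1 higher, against 21.3% and 20.8% of all tested genes, and the call of STMN2 (lower) was lost under some alternative. DBH, dopamine beta-hydroxylase, was lower at -1.50 ± 0.06 and CHGA, chromogranin A, at -0.93 ± 0.06 and CHGB at -0.46, whereas DDC, which makes dopamine, was higher by 0.14 ± 0.02. From 3 to 24 h DBH, CHGA and CHGB rose in vehicle (log2 values of 0.85, 0.57 and 0.34) and fell in CBD (-0.60, -0.40 and -0.18). The CHGB call in CBD over that interval was lost under quantile normalization (limma adjusted p = 0.234). TH, tyrosine hydroxylase, had a log2 fold change of -0.13 (limma adjusted p = 0.163).

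Of the mesenchymal identity markers 16 of 23 were below the filter, with PRRX1 listed above 0 in 7 of 32 samples. SNAI2 passed the filter and was above 0 in all 32 samples, with a mean of 7.96 FPKM. The summed level of the 23 markers, most of it vimentin, was 390.1 to 425.5 FPKM in CBD and 369.2 to 388.8 FPKM in vehicle at 24 h, without overlap. At 6 h the order was the opposite, also without overlap, with 277.5 to 293.1 FPKM in CBD and 296.8 to 303.7 FPKM in vehicle, and at 12 h the groups overlapped. At 3 h the ranges were 296.6 to 320.2 and 289.0 to 295.2 FPKM. Of the 7 tested, 4 were higher and 2 lower at 24 h (20.8% and 21.3% of all tested genes), and the calls of VIM (higher) and CD44 (lower) were lost under some alternative. ID1 was higher by 0.74 ± 0.11 and SNAI2 by 0.43 ± 0.04, and FOSL2 was lower at -0.34. From 3 to 24 h ID1 and SNAI2 fell in both treatments, by log2 values of -1.34 and -0.69 in vehicle and -0.83 and -0.36 in CBD. FOSL2 rose in both over that interval (0.37 in vehicle and 0.21 in CBD). The summed level of 5 Schwann cell markers was 1.05 to 1.74 FPKM and that of 5 immune cell markers 0.74 to 1.36 FPKM over all samples, and no gene of either list passed the filter, as was the case for the 4 endothelial cell markers. Of 4 epithelial markers EPCAM alone passed (2.51 FPKM), and their sum was 4.67 to 5.71 FPKM in CBD and 3.94 to 4.40 FPKM in vehicle at 24 h, with 3.19 to 3.65 and 2.51 to 2.83 FPKM at 12 h and overlap at 3 and 6 h. The part of these markers in the results above was not tested.

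Genes whose FPKM pattern was most like each factor were named by the highest Pearson correlation over the 32 samples, on log2(FPKM + 1), as a description. The samples share their groups, so any pair of genes that respond to CBD or time will correlate. For MYCN they were ASNS, asparagine synthetase (r = 0.955), PPP1R16B (0.953) and RET, a receptor tyrosine kinase (0.951). For ISL1 they were PEG10 (0.958), LOC100996635 (0.956) and RGS2 (0.945). For GATA2 they were CX3CL1 (0.963), MARCKSL1 (0.957) and LZTS1 (0.955). For PHOX2A they were PYCRL, SLC25A10 and SLC2A8 (0.922 to 0.928), and for SOX11 CNOT6, MSL1 and GSK3B (0.918 to 0.936). For HAND2, GATA3 and TBX2 the highest values were 0.911 (C7orf50), 0.873 (SARM1) and 0.894 (HS6ST1).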

How the data were processed

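SK-N-BE(2) poly(A) RNA was sequenced in 32 samples with single short reads. The authors trimmed reads with Trimmomatic 0.36, aligned them with TopHat to hg19 and computed the deposited FPKM per sample with Cufflinks. A deposited Cuffdiff table, which holds the authors' own log2 fold changes and q-values, was not used. The methods describe the run as first stranded. The annotation and whether counting used strand are not given in the sources used here, and the labels and the paper name different library kits.

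Groups came from the labels. FPKM were taken as log2(FPKM + 1), genes with a mean of at least 1 FPKM were kept, and 1 model of 8 group means was fitted with limma 3.58.1 in R 4.3.3 (eBayes with trend). Fold changes are on this scale and understate changes of low genes. Adjustment was Benjamini-Hochberg within each comparison, with a threshold of 0.01. Intervals are 95%. Exact permutation tests compared single genes. The fit was tested on simulated data. The 8 genes and all lists were chosen with earlier results of these data known. Named from each list were the called genes with the largest absolute log2 fold changes at 24 h (3 per list) or at other times (2), genes beside or antisense to the 8, and the 3 genes most like each of the 8. Chosen after their values were seen were KLF7, PBX3, MAX, FBXW7, DDC, TH, HAND1, ISL2, TBX3, ODC1, SIX3, TCF3, NPM1, POLR1B, CDK4, VIM, CD44 and STMN2. Some genes of the lists are counted but not reported by name here. The count test was not run, since FPKM are not counts.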

Additional observations from a re-analysis of the deposited data

Results flagged for a closer look

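Of the 64 sets of 4 samples (8 genes in 8 groups), 4 held a sample that stood apart from the other 3 by a gap test, a number near the 1 in 20 that chance gives. MYCN in CBD at 24 h had its highest value in replicate 2 (2451.6 FPKM, with the next at 2207.89). Without that replicate the log2 fold change of MYCN at 24 h was 0.50 instead of 0.54 (limma adjusted p = 4.01e-12). The same library, CBD 24 h replicate 2, held the lowest SOX11 value of its group (30.3516 FPKM, with the next at 33.2238). TBX2 in CBD at 24 h was highest in replicate 3 (13.879 FPKM, next 12.5539), and SOX11 in CBD at 12 h was highest in replicate 4 (38.2479 FPKM, next 34.9918).

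The CBD effect differed between 3 and 24 h by the limma test of that difference for MYCN (0.453 on the log2 scale), PHOX2A (-0.3337), GATA2 (-0.3326) and ISL1 (-0.3341), with limma adjusted p of 7.99e-08, 0.00136, 3.58e-05 and 2.3e-08.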

How the results depend on the processing

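The calls of MYCN at 6, 12 and 24 h, of ISL1 at 12 and 24 h and of GATA2 at 24 h held under every alternative setting and with any 1 sample left out, whereas those of TBX2 at 6 h and GATA3 at 12 h did not. At 3 h 1 of the 8 genes instead of 0 was called (SOX11) with a pseudocount of 5, a mean of at least 5 FPKM, median-ratio scaling, quantile normalization, a replicate block or a threshold of 0.05. At 6 h no filter, relative depth as a term or only the compared groups in the fit gave 1 instead of 2, and a threshold of 0.05 gave 4. Quantile normalization and leaving out CBD 6 h replicate 4 each added ISL1, which gave 3. Leaving out certain other single samples gave 1, without TBX2. At 12 h a threshold of 0.05 gave 5 instead of 3, and no filter, median-ratio scaling, relative depth as a term or only the compared groups in the fit gave 2, without GATA3. The replicate block gave 1, 2, 4 and 4 calls at 3, 6, 12 and 24 h. Over all tested genes, none of 16 pairs of samples with the same number had a correlation of deviations over 0.1. Of the 16, 5 correlated best with their own number. The numbers were therefore not used as pairs in the main fit, and pairing was not tested for the 8 genes alone. Under quantile normalization the sign turned and the call was lost for SSBP3 in vehicle at 24 against 3 h (0.0134) and, in CBD at 24 against 3 h, for NPM1 (-0.0094), NOP16 (0.035), DKC1 (0.0457), PES1 (0.0222) and DDX1 (0.0287); the cause was not tested. For the 8 genes, 672 results kept their side of the threshold under the settings, 16 lost it and 8 passed it, and 731, 34 and 3 did when a sample was left out. FPKM hold no depth, so the counting error of single values is unknown.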
